A study of Mus musculus with 95 samples.

Results

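The potassium channel family was examined here as the protein-coding genes whose symbol begins with Kcn, leaving out Kcnj10 and Kcnj16, and whose level in CPM (a library's count for a gene, scaled to the same total in every library) averaged 1 or more over all libraries. That rule gave 69 members of 92 candidate genes, in a table of 55471 features. The member just inside the limit was Kcnmb2 at a mean of 1.10 CPM, and the candidate just outside it was Kcns3 at 0.994 CPM. Kcnj6, a G-protein-gated channel named with the family for its ethanol sensitivity, averaged 0.852 CPM. It is described beside the members but counted nowhere among them. The SK relative Kcnn4, at 0.739 CPM, was also below the limit.

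RNA came from punches of the nucleus accumbens of mice that carry the transgene Tg(Aldh1l1-EGFP/Rpl10a)JD130Htz on a B6;FVB background, in which regulatory sequence of Aldh1l1, an astrocyte gene, drives a tagged ribosomal protein. Every mouse of every group carries it, so no group lacks the tag. Tagged ribosomes were purified from a punch to give the IP library, and the input library is RNA of the whole punch. A cell type that does not use Aldh1l1 is not tagged. Its RNA is in the input, and RNA carried along without the tag can also reach the IP. Dependent mice went through CIE-2BC (in this field, chronic intermittent ethanol exposure with bottle-choice drinking) for 5 rounds, non-dependent mice had 2BC alone, and naive mice had no ethanol. Ages are not given in the sources used here. Of 49 mice, 46 have both libraries and 3 have an input only. IP libraries number 18 from dependent mice (10 female, 8 male), 13 from non-dependent mice (8 female, 5 male) and 15 from naive mice (8 female, 7 male). Input libraries number 18 from dependent mice (10 female, 8 male), 15 from non-dependent mice (8 female, 7 male) and 16 from naive mice (8 female, 8 male). The batch label has 6 values, of which C and G hold 1 dependent mouse each. Naive mice are missing from batch I, and non-dependent mice from batch L. Batches J, K and L hold 4, 2 and 3 dependent mice in each fraction. Those of batch K, K18 and K21, are male, while its naive and non-dependent mice are of both sexes. Differences given below within batch K thus rest on 2 male dependent mice.

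Potassium channels set the resting potential of a cell and end its electrical activity. Leak channels of the tandem-pore (Kcnk) family and inward rectifiers (Kcnj) hold the resting potential, voltage-gated channels (Kcna to Kcnd, Kcnh, Kcnq) repolarize the membrane after a spike, and calcium-activated BK (Kcnma1) and SK (Kcnn) channels follow calcium entry. Silent subunits (Kcnf, Kcng, Kcns, Kcnv) conduct only when joined with other pore subunits, and accessory subunits (Kcnab, Kcnip, Kcne, Kcnmb) change gating or transport to the membrane. Astrocytes are known for a large potassium conductance that takes up the ion released by neurons, and medium spiny neurons, the main neurons of the accumbens, for strong inward rectifiers and A-type currents. Ethanol acts directly on BK channels and on G-protein-gated inward rectifiers (GIRK), and SK channels have been studied in models of ethanol drinking.

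An IP library held 14314236 to 27146790 counts, and an input library 12803108 to 23948193. Members together took 0.128% to 0.200% of an IP library (median 0.169%) and 0.179% to 0.304% of an input library (median 0.244%). The labelled cell type was checked on marker lists. All 12 astrocyte markers were higher in IP than in input (median log2 fold change 3.11), and all 12 neuron markers (median -1.31), all 12 medium spiny neuron markers (median -1.18) and all 10 interneuron markers (median -1.56) were lower. No listed marker of these 4 types was at 0 in every library of a treatment: medium spiny neuron markers summed to between 1524 and 4579 CPM in the IP libraries compared by treatment. A mouse, the non-dependent male K15 of batch K, stood apart: its IP and input libraries deviated from their groups in opposite directions (r = -0.34, against a median of 0.65 over the 46 mice), and results are given without it where that changes a call. Bulk libraries cannot tell fewer cells of a type from less RNA per cell. Strand use in the counting is not given in the sources used here, and exons of 23 members overlap another annotated gene, mostly on the opposite strand, so that reads of the pair cannot be told apart. Among the members named below the largest overlaps were 39.6% of the exonic length of Kcna6 (with Gm26673), 31.1% of Kcnj3 (with Gm26794) and 20.9% of Kcnmb4 (with Kcnmb4os2). Kcnmb1 lies within the span of Kcnip1.

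The sequence in front of a member's start site was looked up for 47 of the 69 members, in RefSeq's table for GRCm38.p6. Shown are 250 bases before the start in that table, 5′ to 3′ on the gene's strand. They belong to the pair of members whose IP libraries all lay above all input libraries and to the member with the lowest ratio of IP to input. The gene span of Kcne1l given further below starts upstream of that table's start, so part of its window lies inside the span. Capitals mark matches to the motifs named next.
Kcne1l (chrX:142306199-142306448, minus strand): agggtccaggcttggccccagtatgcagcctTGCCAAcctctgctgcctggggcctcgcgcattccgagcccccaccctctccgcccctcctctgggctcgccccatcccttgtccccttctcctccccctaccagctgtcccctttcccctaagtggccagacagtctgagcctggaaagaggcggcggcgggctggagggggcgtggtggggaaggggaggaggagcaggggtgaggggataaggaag
Kcnk1 (chr8:125994852-125995101, plus strand): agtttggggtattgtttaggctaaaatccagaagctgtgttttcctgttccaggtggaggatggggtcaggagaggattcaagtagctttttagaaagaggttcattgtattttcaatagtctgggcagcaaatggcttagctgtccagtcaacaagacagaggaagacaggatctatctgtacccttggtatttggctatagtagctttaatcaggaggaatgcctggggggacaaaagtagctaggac
Kcna3 (chr3:107035912-107036161, plus strand): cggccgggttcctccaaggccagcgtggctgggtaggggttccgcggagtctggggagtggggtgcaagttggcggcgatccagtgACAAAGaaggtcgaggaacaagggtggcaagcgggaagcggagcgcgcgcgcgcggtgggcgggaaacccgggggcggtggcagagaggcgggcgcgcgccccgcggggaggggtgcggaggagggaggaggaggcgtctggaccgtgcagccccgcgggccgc

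Motifs searched on both strands of each window were the NFI half-site TTGGCA, the SOX motif ACAAAG, the cyclic AMP response element TGACGTCA, the RE1 half-site TTCAGCACC and the TATA box TATAAA. The Kcne1l window holds 1 NFI half-site on the opposite strand, the Kcna3 window 1 SOX motif, and the Kcnk1 window none of the 5. Over 18 windows of 11 members higher in IP, 11.1% held the NFI half-site and 16.7% the SOX motif. Over 46 windows of 35 members lower in IP, 6.52% and 8.70% did, and over all 32851 windows listed for mouse genes the shares were 12.3% and 16.5%. A TATA box was in 0 of the windows of the members higher in IP, in 2.17% of those of the members lower in IP and in 12.4% of all windows. The RE1 half-site was in 1 window of a lower member and in 0.301% of all windows, and the cyclic AMP response element in none of the members' windows and 1.55% of all. Median GC content was 61.4% for members higher in IP, 59% for those lower and 52.4% over all windows. Both sides of the family thus had GC-rich windows, and a match is a run of letters, not a bound site.

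Comparing IP with input asks which channel genes are enriched on astrocyte ribosomes. Most of the family was lower in IP: 53 of 69 members fell, 13 rose and 3 were not called, by edgeR's quasi-likelihood test with the mouse as a block at a Benjamini-Hochberg adjusted p of 0.05. Over all 21743 genes tested 78.5% were called, 33.6% higher and 45% lower, and the median was -0.16, against -0.91 over the members. Of the members, 6 were over 1 on the log2 scale and 28 under -1. From the top the order was Kcne1l, Kcnj14, Kcng4, Kcnk1, Kcnn2 and Kcnk10, and from the bottom Kcna3, Kcnb2, Kcnv1, Kcnip1, Kcnj9 and Kcnt2. For 4 members the IP library was the higher in all 46 mice (Kcne1l, Kcnj14, Kcnk1, Kcnn2), and for 29 it was the lower in all 46. Shares over all genes are not given here for these counts or for those beyond 1 and -1, which describe the members only. IP and input levels did not overlap at all for 3 members, Kcne1l and Kcnk1 above and Kcnh1 below, a share near the 4.97% of all genes tested. The excluded pair Kcnj10 and Kcnj16, the inward rectifiers best known from astrocytes, had values of 2.93 and 3.08.

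**Figure D1:**
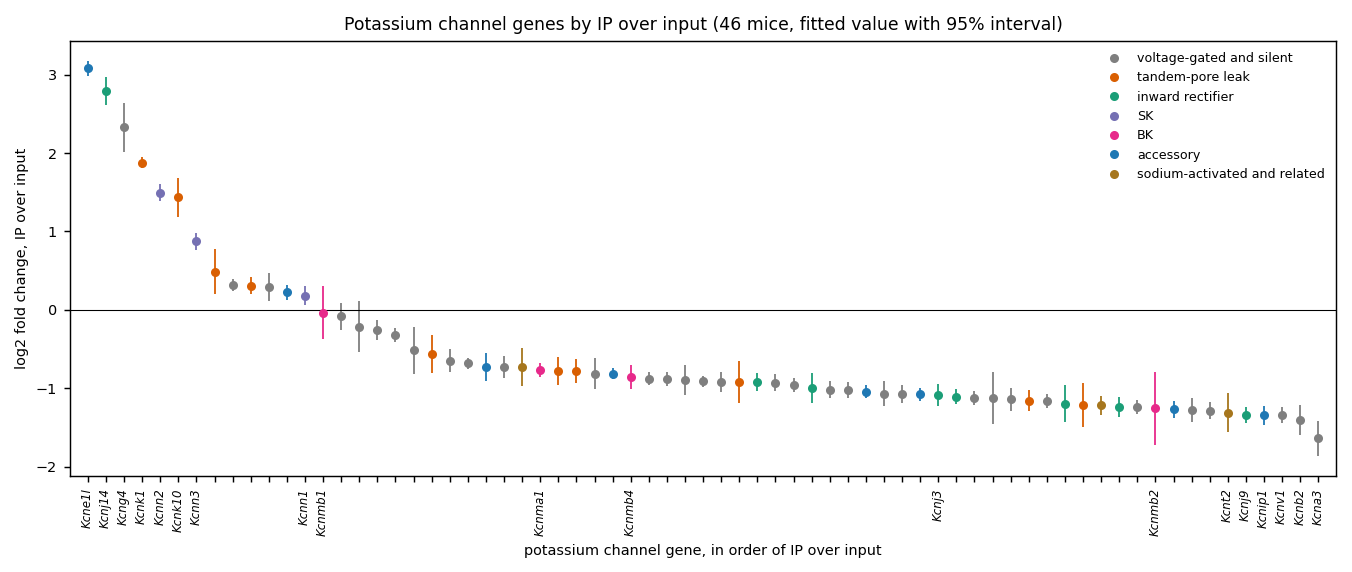
Log2 fold change of IP over input (vertical axis) for the 69 members in order (horizontal axis), fitted over 46 mice, with bars for the 95% interval and colours for the channel class; gene names are given for the 6 highest, the 6 lowest and the BK, GIRK and SK genes. Of the 69 values, 13 lie above 0 with their call and 53 below, and the SK channels are all on the upper side.

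Accessory subunits held the highest member of the family. Kcne1l (ENSMUSG00000090122, chrX:142304752-142306294, minus strand in GRCm38), a KCNE-type single-pass subunit, had lowest, median and highest levels of 58.5, 101 and 173 CPM in the IP libraries and 5.50, 13.98 and 28.2 CPM in the input libraries. All IP libraries lay above all input libraries, and IP exceeded input 8.45-fold (log2 fold change 3.08 ± 0.05 SE, adjusted p = 2.35e-51). Of the 11 accessory subunits 2 rose, 8 fell and Kcnmb1 was not called. Among the Kv4-binding Kcnip proteins Kcnip3, also known as a calcium-dependent repressor, was called higher at 0.22 ± 0.05 (SE), in 27 of 46 mice. Kcnip1 was the lowest of them at -1.34 ± 0.06 (SE), with 2.94, 12.7 and 40.3 CPM in the IP libraries and 9.07, 39.02 and 90.97 CPM in the input libraries. All 3 Kcnab subunits, which bind Kv1 channels, fell, from -0.73 ± 0.09 (SE) for Kcnab3 to -1.08 ± 0.04 (SE) for Kcnab2.

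Leak channels split. Of 10 Kcnk members 4 were higher and 6 lower in IP. Kcnk1 (ENSMUSG00000033998, chr8:125995170-126030685, plus strand), a tandem-pore channel known as a part of the passive conductance of astrocytes, had levels of 145, 219 and 328 CPM in the IP libraries and 40.9, 70.3 and 112 CPM in the input libraries. All IP libraries lay above all input libraries, 3.68-fold by the fit (log2 fold change 1.88 ± 0.03 SE, adjusted p = 1.28e-50). Kcnk10, a mechanosensitive and lipid-sensitive leak channel, had 1.81, 5.67 and 13.5 CPM in the IP libraries and 0.221, 2.54 and 8.89 CPM in the input libraries, and IP was higher in 44 of 46 mice (log2 fold change 1.44 ± 0.13 SE, adjusted p = 7.42e-16). Its relative Kcnk2, at 68.95, 99.9 and 143 CPM in the IP libraries and 50.03, 89.1 and 130.3 CPM in the input libraries, was far more even: the value was 0.31 ± 0.05 (SE) and IP was higher in 30 of 46 mice. Kcnk7 also rose (0.49 ± 0.15 SE), but edgeR did not call it in batch I alone (0.15, adjusted p = 0.648) or batch L alone (0.11, adjusted p = 0.755). The lowest leak channel was Kcnk4 at -1.21 ± 0.14 (SE), followed by the acid-sensitive Kcnk3 at -1.16 ± 0.07 (SE).

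Inward rectifiers were lower in IP with 1 exception among 8. Kcnj14, a strong inward rectifier, had 1.18, 6.73 and 16.6 CPM in the IP libraries and 0.0715, 0.945 and 3.82 CPM in the input libraries. It was higher in IP in every mouse (log2 fold change 2.79 ± 0.09 SE, adjusted p = 7.62e-39), although its fractions overlapped between mice. The strong rectifiers Kcnj2 and Kcnj4 went the other way, at -1.24 ± 0.07 (SE) and -1.11 ± 0.05 (SE). Kcnj9, a GIRK subunit, was the lowest at -1.34 ± 0.05 (SE), with 3.90, 9.03 and 19.6 CPM in the IP libraries and 11.8, 26.4 and 77.5 CPM in the input libraries and lower in IP in 46 of 46 mice. Pore subunits of ATP-sensitive channels also fell, Kcnj11 at -0.92 ± 0.06 (SE) and Kcnj8 at -1.19 ± 0.12 (SE).

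Calcium-activated channels divided by type. All 3 SK members rose in IP. Kcnn2 (ENSMUSG00000054477) had 12.5, 30.5 and 66.4 CPM in the IP libraries and 7.88, 12.2 and 19.1 CPM in the input libraries, so that nearly all IP libraries lay above the input range, and its value was 1.49 ± 0.05 (SE) (adjusted p = 1.55e-33). Kcnn3 had 19.8, 30.4 and 44.2 CPM in the IP libraries and 9.70, 18.1 and 31.5 CPM in the input libraries, with a wide overlap, and 0.87 ± 0.05 (SE) with IP higher in 44 of 46 mice. Kcnn1 was close to even, at 0.18 ± 0.06 (SE) with IP higher in only 22 of 46 mice. It lost its call with scaling by library size alone (adjusted p = 0.99) and without the pairing of libraries (0.18, adjusted p = 0.0984). BK channel genes did not rise: the pore gene Kcnma1 (ENSMUSG00000063142, chr14:23289431-24014491, minus strand) had 34.5, 61.7 and 90.9 CPM in the IP libraries and 87.6, 114 and 161 CPM in the input libraries, lower in IP in 46 of 46 mice (log2 fold change -0.76 ± 0.05 SE, adjusted p = 1.07e-22). Its neuronal accessory subunit Kcnmb4 fell likewise (-0.85 ± 0.08 SE), Kcnmb2, near the level limit, had -1.25 ± 0.24 (SE), and Kcnmb1 was not called (-0.03 ± 0.17 SE).

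Voltage-gated and silent pore subunits numbered 33, of which 3 rose and 28 fell. The 3 were Kcng4, Kcna2 and Kcnc4. Kcng4, a silent subunit that joins Kv2 channels, had 0.449, 2.61 and 10.3 CPM in the IP libraries and 0, 0.536 and 2.31 CPM in the input libraries, and a value of 2.33 ± 0.16 (SE). Kcna2, a Kv1 pore subunit of axons, had 74.8, 109 and 167 CPM in the IP libraries and 71.5, 102 and 133 CPM in the input libraries. Its IP and input ranges nearly coincided, and the fit placed IP 1.25-fold higher (log2 fold change 0.32 ± 0.04 SE, adjusted p = 6.81e-11), in 32 of 46 mice. Kcnc4, a Kv3 subunit, was at 0.29 ± 0.09 (SE), and was not called without the pairing of libraries (0.25, adjusted p = 0.141) or with library size alone (0.10, adjusted p = 0.29).

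Kcna3 (ENSMUSG00000047959, chr3:107036169-107038070, plus strand), a Kv1 pore subunit best known from T cells and microglia, was lowest of all at -1.64 ± 0.11 (SE). Its levels were 0, 1.27 and 6.41 CPM in the IP libraries and 0.226, 5.76 and 15.3 CPM in the input libraries, and its fractions overlapped. Both ranges span a large difference between batches, described further on. In batch K alone its value was -0.43 and was not called (edgeR adjusted p = 0.446). Its mean levels there were 0.845 CPM in IP and 1.14 CPM in input. Kcnb2, a Kv2 subunit, was at -1.41 ± 0.10 (SE). Among Kv3 and Kv4 subunits Kcnc2 was at -1.27 ± 0.08 (SE), Kcnd2, which carries A-type current, at -0.91 ± 0.04 (SE), and Kcnd1 was not called (-0.08 ± 0.09 SE). All 7 Kcnh members fell, from -0.52 ± 0.15 (SE) for Kcnh5 to -1.24 ± 0.05 (SE) for Kcnh1. Kcnh1, an EAG channel, had 9.44, 16.7 and 25.7 CPM in the IP libraries and 28.3, 43.9 and 76.8 CPM in the input libraries, and its fractions did not overlap. Kcnv1, a silent subunit, was at -1.34 ± 0.05 (SE). The sodium-activated channels Kcnt1 and Kcnt2 were at -1.22 ± 0.06 (SE) and -1.31 ± 0.13 (SE), and their relative Kcnu1, known from sperm, at -0.73 ± 0.12 (SE).

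**Figure D2:**
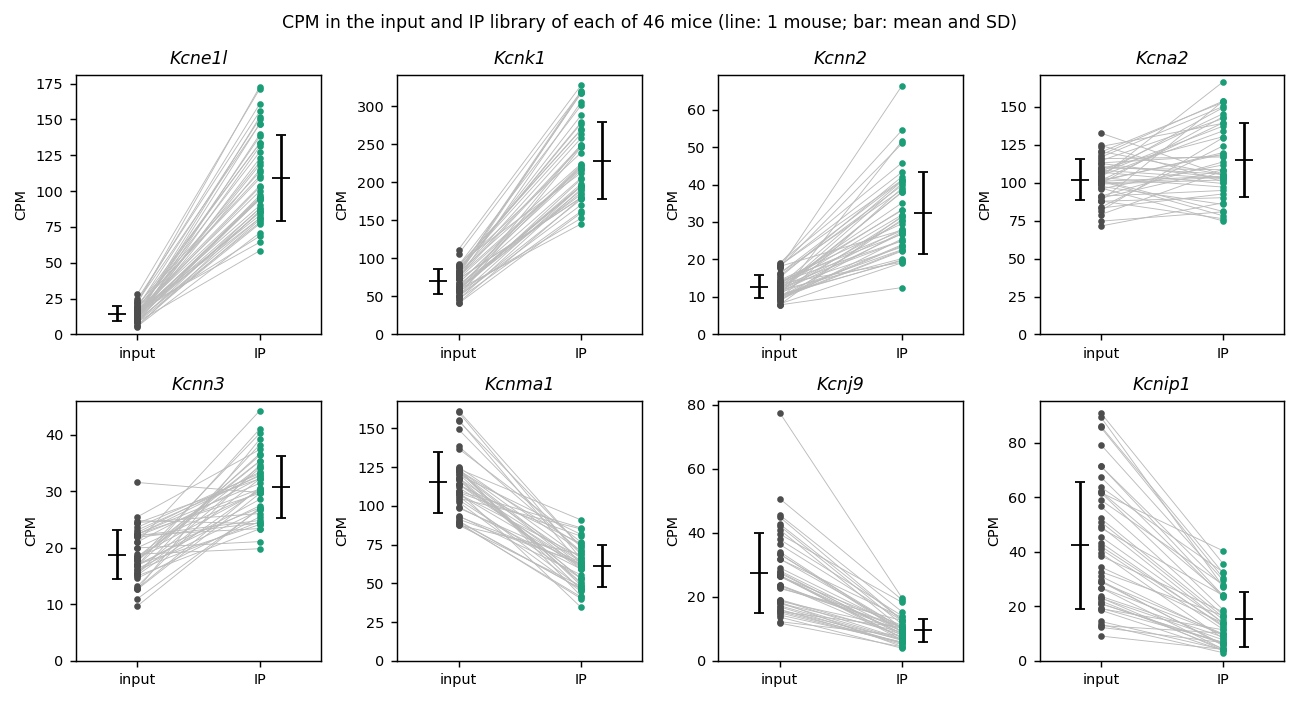
CPM (vertical axis, from 0) in the input and the IP library of each of 46 mice, for 8 members; each line is 1 mouse, and the bar beside each column gives the mean and SD. Kcne1l, Kcnk1 and Kcnn2 rise along all 46 lines and Kcnma1, Kcnj9 and Kcnip1 fall along all 46, while Kcna2 runs in both directions.

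Levels can be compared between genes only per length. In mean CPM per kilobase of exonic sequence Kcnk1 led the members in IP and Kcnip2 led them in input. Kcnk1 stood at 102 in IP and 31.3 in input, and Kcne1l at 70.7 in IP and 9.40 in input. Kcnip3 was even, at 24.99 in IP and 24.9 in input, and Kcnip2 stood at 21.8 in IP and 42.6 in input. Kcnk2 was at 19.9 in IP and 18.04 in input, Kcnd2 at 11.3 in IP and 23.7 in input, and Kcna2 at 9.66 in IP and 8.57 in input. On the same scale the SK genes were lower, Kcnn2 at 4.33 in IP and 1.71 in input and Kcnn3 at 2.94 in IP and 1.79 in input. Kcnj14 and Kcng4, which ranked high by ratio, were scarce. Kcnj14 stood at 2.63 in IP and 0.422 in input, and Kcng4 at 0.799 in IP and 0.181 in input. For comparison, the excluded Kcnj10 stood at 74.5 in IP and 10.8 in input.

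Neighbouring channel genes could differ widely. On chromosome 1 Kcnj9 lies 11.9 kb from Kcnj10 with no coding gene between, and their log2 fold changes of IP over input were -1.34 and 2.93. On chromosome 11 Kcnj2 lies 38.2 kb from Kcnj16, at -1.24 and 3.08. On chromosome 3 Kcna3 lies 63.1 kb from Kcna2, at -1.64 and 0.32. By contrast, the Kcna5, Kcna1 and Kcna6 cluster of chromosome 6 was lower throughout, at -1.07, -0.88 and -1.29.

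Direction was shared by the batches for most members. In the mean over the mice of a batch, 8 members had a positive and 55 a negative log2 ratio in each of batches I, J, K and L (14, 11, 9 and 10 mice), and 6 were mixed. Median ratios over the members were -1.14 in batch I, -0.996 in J, -0.96 in K and -1.15 in L, on a log2 scale with a prior count of 2 and no scaling factor. On that scale Kcna2, Kcnip3 and Kcnk7, called higher above, had negative means in batch I (-0.06, -0.13 and -0.08). Shares over all genes are not given here for these directions, which describe the members only. Library size alone, in place of TMM factors, moved the median of all genes from -0.16 to -0.33 and that of the members from -0.91 to -1.08. With that shift Kcnc4, Kcnip3 and Kcnn1 were no longer called higher, and Kcnd1 (-0.26) was called lower.

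Dependent and naive mice differed at 9 members in the IP. Kcnip1, Kcng2 and Kcnn2 rose, and Kcns2, Kcne1l, Kcnq3, Kcnj4, Kcnd2 and Kcna2 fell, in edgeR's quasi-likelihood fit of batches I to L with terms for treatment by sex and for batch (16 dependent, 13 non-dependent and 15 naive IP libraries). Of all 19979 genes tested 4.67% were called, 2.81% higher and 1.86% lower. The median of the members was -0.06 and that of all genes close to 0. No member separated the groups completely. Females alone gave 5 called members, of which Kcnab1 was not among the 9. Batches J and K alone gave 4, of which Kcna4 was not among the 9, and males alone gave 1, Kcne1l.

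Kcne1l was highest in naive mice. Its lowest, median and highest IP levels were 64.3, 85.4 and 120.3 CPM in dependent, 77.3, 103 and 139.7 CPM in non-dependent and 94.1, 147 and 173 CPM in naive mice. Every dependent library lay below the naive median, and the log2 difference, dependent minus naive, was -0.61 ± 0.08 (SE, adjusted p = 4.71e-06). Within batches J, K and L the difference was -0.58, -0.34 and -0.60. Non-dependent mice lay between, -0.34 ± 0.10 (SE, adjusted p = 0.0905) against naive and -0.27 ± 0.08 (SE, adjusted p = 0.082) for dependent against non-dependent, neither called by edgeR. DESeq2 called both (-0.35, adjusted p = 0.0266, and -0.26, adjusted p = 0.0455), and edgeR called the latter without the mouse that stood apart (-0.31, adjusted p = 0.0406). Kcne1l was also called lower in the input of dependent mice, as given with the input below.

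Kcns2, a silent subunit that joins Kv2 channels, had IP levels of 6.02, 8.25 and 13.8 CPM in dependent, 8.08, 10.6 and 15.4 CPM in non-dependent and 9.51, 11.2 and 18.1 CPM in naive mice. Only 1 of 16 dependent libraries exceeded the naive median, and the difference was -0.67 ± 0.11 (SE, adjusted p = 1.61e-04), or -0.89, -0.57 and -0.32 within batches J, K and L. Kcna2 had 74.8, 102 and 149.6 CPM in dependent, 76.3, 104 and 153 CPM in non-dependent and 104, 134 and 167 CPM in naive mice, and fell by 0.37 on the log2 scale (adjusted p = 0.0131), with -0.35, -0.49 and -0.32 within the batches. In input Kcna2 was not called (-0.09, adjusted p = 0.773). Kcnq3, a subunit of the M-current, had 18.7, 35.1 and 53.8 CPM in dependent, 30.98, 43.8 and 78.8 CPM in non-dependent and 34.7, 46.3 and 75.4 CPM in naive mice, a difference of -0.53 ± 0.14 (SE, adjusted p = 0.0234) that stood at -0.52, -0.90 and -0.44 within the batches.

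Kcnd2 and Kcnj4, an A-type pore and a strong inward rectifier, completed the genes that fell. Kcnd2 had IP levels of 38.2, 48.8 and 81.9 CPM in dependent, 43.5, 62.2 and 66.7 CPM in non-dependent and 47.3, 65.3 and 89.02 CPM in naive mice, which overlapped, and differed by -0.39 ± 0.11 (SE, adjusted p = 0.0313), or -0.63, -0.54 and -0.21 within batches J, K and L. Kcnj4 had 9.90, 19.6 and 36.96 CPM in dependent, 10.7, 23.2 and 30.99 CPM in non-dependent and 12.5, 17.99 and 30.4 CPM in naive mice, so its groups overlapped widely, and 9 of 16 dependent libraries exceeded the naive median. With the batch term the difference was -0.41 ± 0.11 (SE, adjusted p = 0.0266) and, within the batches, -0.44, -0.50 and -0.42, while without the term it was -0.15 (adjusted p = 0.702). Among medium spiny neuron markers 2 of 12 also fell in this comparison (Adora2a and Bcl11b, list median -0.33, summed levels 1524 to 4540 CPM in dependent and 2524 to 4579 CPM in naive IP libraries), and neither the 12 neuron nor the 10 interneuron markers had a call (medians 0.02 and -0.01). Their part in the channel results was not tested.

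Kcnn2 was lowest in naive mice, with IP levels of 27.7, 38.6 and 54.5 CPM in dependent, 22.6, 33.3 and 66.4 CPM in non-dependent and 12.5, 22.5 and 31.6 CPM in naive mice. All 16 dependent libraries lay above the naive median, a 1.51-fold difference (0.60 ± 0.11 SE, adjusted p = 8.22e-04), and batches J, K and L gave 0.79, 0.60 and 0.76. Kcnip1 had 7.67, 20.1 and 35.6 CPM in dependent, 3.84, 17.9 and 40.3 CPM in non-dependent and 2.94, 6.66 and 13.9 CPM in naive mice, again with all dependent libraries above the naive median. It was 2.05-fold higher (1.03 ± 0.21 SE, adjusted p = 0.00129), and 0.92, 1.33 and 1.09 within the batches. Kcng2, a silent subunit, had 1.06, 2.69 and 8.13 CPM in dependent, 1.36, 2.57 and 5.51 CPM in non-dependent and 0.491, 1.37 and 2.42 CPM in naive mice, and differed by 0.90 ± 0.24 (SE, adjusted p = 0.0197), or 0.83, 1.11 and 0.85 within the batches. With no filter on low counts Kcng2 was not called (0.91, adjusted p = 0.068). Both Kcnip1 and Kcng2 were lower in IP than in input, whereas Kcnn2 was higher.

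Dependent and non-dependent mice, which share bottle drinking and differ in the ethanol exposure cycles, differed at 1 member in the IP. Kcnh3, an ELK-type channel of forebrain neurons, had 8.84, 23.7 and 37.3 CPM in dependent, 13.2, 34.5 and 51.2 CPM in non-dependent and 7.40, 20.1 and 33.4 CPM in naive mice, and was lower in dependent mice, with a log2 difference of -0.43 ± 0.11 (SE, adjusted p = 0.0253), against 1.54% of all genes called and 0.445% called lower. It was -0.40, -0.38 and -0.53 within batches I, J and K, and 2 of 16 dependent libraries exceeded the non-dependent median. The value of batch K compares 2 male dependent mice with 3 non-dependent mice, the females K12 and K16 and the male K15, which stood apart. Leaving out the mouse that stood apart ended the call (-0.39, adjusted p = 0.0722), as did leaving out the batch term (-0.46, adjusted p = 0.544). The next members by p were Kcne1l and Kcnh4 (-0.87, adjusted p = 0.0882), not called by edgeR. Kcnh4 was called by DESeq2 (-0.87, adjusted p = 0.0397), by limma voom (-0.94, adjusted p = 0.0464) and with no filter on low counts (-0.87, adjusted p = 0.00506). Over the members the median was -0.09 and 47 of 69 values were negative, against a median close to 0 for all genes. In the same comparison 1 neuron marker of 12 and 1 medium spiny neuron marker of 12 were lower (list medians -0.10 and -0.26) and 3 of 10 microglia markers higher (0.39, summed levels 176 to 744 CPM in dependent and 188 to 272 CPM in non-dependent mice), and their part was not tested.

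Non-dependent and naive mice showed no called member in the IP by edgeR (0.44% of all genes called), against 4 by DESeq2 and 1 by limma voom. At an unadjusted p under 0.05 were 10 members (14.5%), against 10.2% of all genes. This comparison shares its naive libraries with that of dependent and naive mice and its non-dependent libraries with that of dependent and non-dependent mice, and only batches J and K hold both groups. The smallest p-values belonged to Kcnn2 (0.52 ± 0.13 SE, adjusted p = 0.0595), Kcna2 (-0.38 ± 0.10 SE, adjusted p = 0.0788) and Kcne1l. For dependent against naive mice, the values of the first pair were 0.60 and -0.37. Dependent and non-dependent mice were not shown to differ at Kcnn2 (0.07 ± 0.11 SE, adjusted p = 0.895) or Kcna2 (0.01 ± 0.09 SE, adjusted p = 0.979). Kcnn2 was called between non-dependent and naive mice by DESeq2 (0.51, adjusted p = 0.0175), by limma voom (0.56, adjusted p = 0.0368) and without the mouse that stood apart (0.58, adjusted p = 0.0494).

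**Figure D3:**
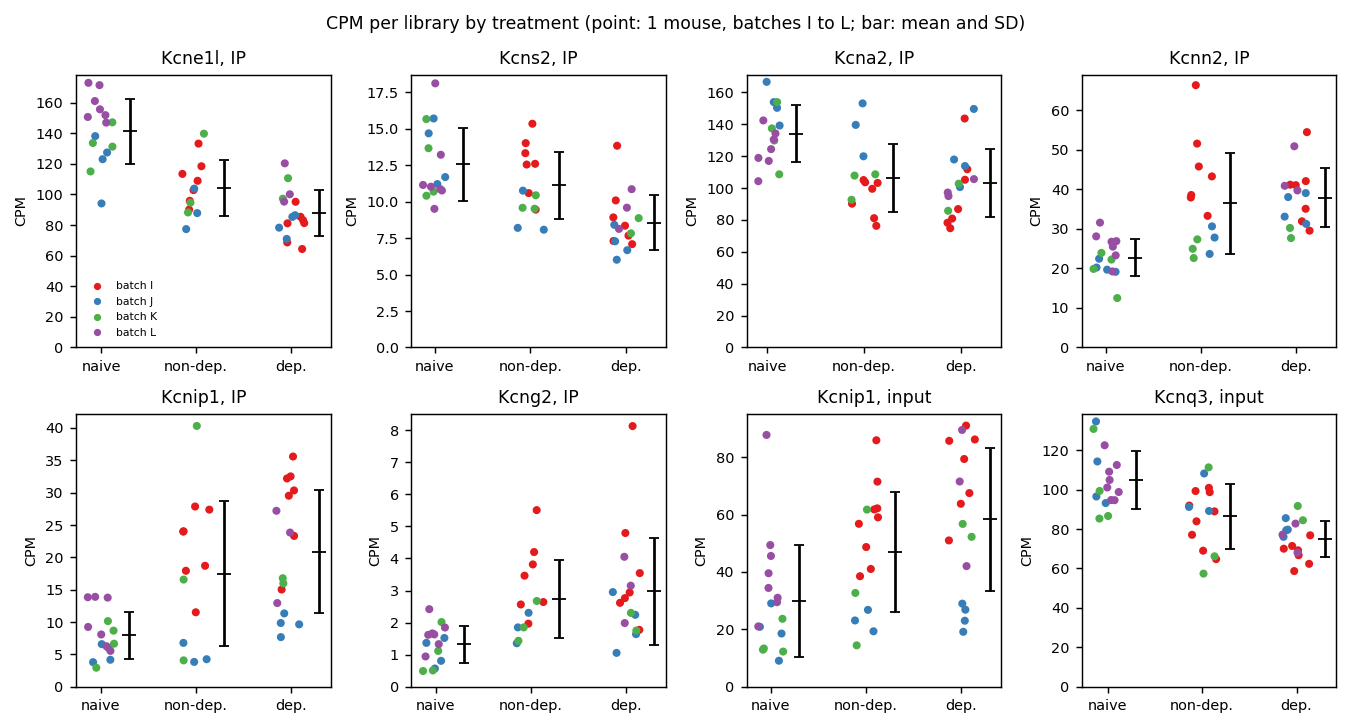
CPM per library (vertical axis, from 0) by treatment for 6 members in IP and 2 in input; each point is 1 mouse coloured by batch, and the bar gives mean and SD. Naive mice lie highest for Kcne1l, Kcns2 and Kcna2 and lowest for Kcnn2, Kcnip1 and Kcng2, with non-dependent means between the others.

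In the input 6 members differed between dependent and naive mice, where 2.38% of 19691 genes were called (1.42% higher, 0.965% lower). Kcnip1 and Kcng2 rose, and Kcnq3, Kcnj2, Kcne1l and Kcns2 fell. Kcnq3 had input levels of 58.7, 76.4 and 91.7 CPM in dependent, 57.4, 89.2 and 111 CPM in non-dependent and 85.3, 100.2 and 135 CPM in naive mice, and no dependent library exceeded the naive median (-0.46 ± 0.09 SE, adjusted p = 0.00338, or -0.44, -0.17 and -0.46 within batches J, K and L). Kcnip1 had 19.1, 60.2 and 90.97 CPM in dependent, 14.4, 48.7 and 85.9 CPM in non-dependent and 9.07, 26.4 and 87.7 CPM in naive mice, a wide overlap with a difference of 0.85 ± 0.17 (SE, adjusted p = 0.00214), or 0.43, 1.85 and 0.73. The value of batch K sets 2 male dependent mice against naive mice of both sexes, and the part of sex in it was not tested. Kcng2 differed by 0.69 ± 0.17 (SE, adjusted p = 0.0153). Kcnj2, an inward rectifier of medium spiny neurons, had 7.15, 20.6 and 24.7 CPM in dependent, 13.1, 23.6 and 28.1 CPM in non-dependent and 16.1, 25.4 and 35.2 CPM in naive mice and differed by -0.53 ± 0.13 (SE, adjusted p = 0.0235), though by only -0.09 in batch K (-0.64 in J, -0.57 in L), and was not called without the batch term (-0.45, adjusted p = 0.0868). Kcne1l differed by -0.53 ± 0.15 (SE, adjusted p = 0.0377), with -0.78, 0.03 and -0.58 in the batches, so batch K did not share it. Kcns2 differed by -0.32 ± 0.09 (SE, adjusted p = 0.038) and was not called without the mouse that stood apart (-0.31, adjusted p = 0.0539) or with no filter on low counts (-0.31, adjusted p = 0.0892). No medium spiny neuron marker of 12 was called in the input (median -0.22).

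Of those 6, 5 were also among the 9 called in the IP, the exception being Kcnj2. The difference between fractions was tested in a model of both libraries of each mouse. No member was called for dependent against naive (0.356% of all genes called), for dependent against non-dependent (0.0923%) or for non-dependent against naive (0%). The limma voom fit called none either. For dependent against naive, 9 members (13.04%) had an unadjusted p under 0.05, against 8.154% of all genes. For dependent against non-dependent 9 did (13.04%, against 8.163%), and for non-dependent against naive 11 did (15.94%, against 5.536%). The IP-minus-input values were 0.27 for Kcnn2 (adjusted p = 0.655), -0.31 for Kcna2 (adjusted p = 0.181) and -0.36 for Kcns2 (adjusted p = 0.326). In input no member was called between dependent and non-dependent mice (0.355% of all genes called). At an unadjusted p under 0.05 were 5 members (7.25%), against 6.85% of all genes. Kcnh2 (0.30, adjusted p = 0.349), Kcnd1 (0.35, adjusted p = 0.454) and Kcnq3 (-0.23, adjusted p = 0.464) had the smallest p. Between non-dependent and naive mice no member was called in input either (0.122% of all genes called). There 7 members (10.1%) had an unadjusted p under 0.05, against 7.17% of all genes. They were led by Kcnip1 (0.55, adjusted p = 0.355), Kcng2 (0.49, adjusted p = 0.496) and Kcns2 (-0.24, adjusted p = 0.549). DESeq2 and limma voom called no member in these input comparisons.

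Among the BK, GIRK and SK channel genes, grouped here for their place in ethanol research, edgeR called only Kcnn2 in the 6 treatment comparisons. That call was between dependent and naive mice in IP. The list holds 13 genes, of which 9 are members. In input Kcnn2 differed by 0.32 ± 0.10 (SE, adjusted p = 0.0813) between dependent and naive mice, with 15 of 16 dependent libraries above the naive median. It was called there without the batch term (0.37, adjusted p = 0.00848). Kcnma1 had IP levels of 40.1, 64.2 and 85.8 CPM in dependent, 41.2, 55.4 and 90.9 CPM in non-dependent and 34.5, 61.3 and 85.1 CPM in naive mice, nearly the same range in each treatment, and dependent mice differed from naive by 0.10 ± 0.12 (SE, adjusted p = 0.746). In input its difference was 0.14 ± 0.10 (SE, adjusted p = 0.651). Kcnmb4 had 0.22 (adjusted p = 0.724) in IP and 0.34 (adjusted p = 0.475) in input. Kcnmb1 and Kcnmb2, each near 1 CPM, had wide errors, 1.49 ± 0.62 (SE, adjusted p = 0.191) and 1.40 ± 1.16 (SE, adjusted p = 0.627) in IP. With no filter on low counts Kcnmb1 was called against naive mice in IP, for dependent mice (1.501, adjusted p = 0.00276) and for non-dependent mice (1.81, adjusted p = 0.00428).

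GIRK subunits were not called. Kcnj3 had IP levels of 3.09, 9.71 and 28.6 CPM in dependent, 3.08, 10.5 and 17.8 CPM in non-dependent and 4.51, 8.27 and 17.6 CPM in naive mice and differed by 0.17 ± 0.31 (SE, adjusted p = 0.867) between dependent and naive mice, and by 0.45 ± 0.29 (SE, adjusted p = 0.542) in input, where its levels were 11.9, 19.3 and 64.9 CPM in dependent, 7.61, 23.8 and 40.4 CPM in non-dependent and 8.42, 16.8 and 31.97 CPM in naive mice. Kcnj9 had 0.06 (adjusted p = 0.941) in IP and 0.20 (adjusted p = 0.77) in input. Kcnj6, below the level limit, had 0, 0.279 and 2.53 CPM in dependent, 0, 0.279 and 1.97 CPM in non-dependent and 0, 0.142 and 1.07 CPM in naive mice in IP, with libraries at 0 in every treatment, and its IP-over-input value was -1.09 ± 0.18 (SE). At that depth its treatment differences of 0.92 ± 0.80 (SE, adjusted p = 0.65) in IP and 0.81 ± 0.49 (SE, adjusted p = 0.506) in input had wide errors. Kcnn3 had 19.8, 26.9 and 40.2 CPM in dependent, 23.3, 29.9 and 39.2 CPM in non-dependent and 26.03, 34.3 and 44.2 CPM in naive mice. Its difference had the opposite sign to that of Kcnn2 and was not called (-0.25 ± 0.10 SE, adjusted p = 0.158), except without the batch term (-0.31, adjusted p = 0.0377). In input it was at -0.01 (adjusted p = 0.98). Kcnn1 was at 0.02 (adjusted p = 0.975) in IP.

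**Figure D4:**
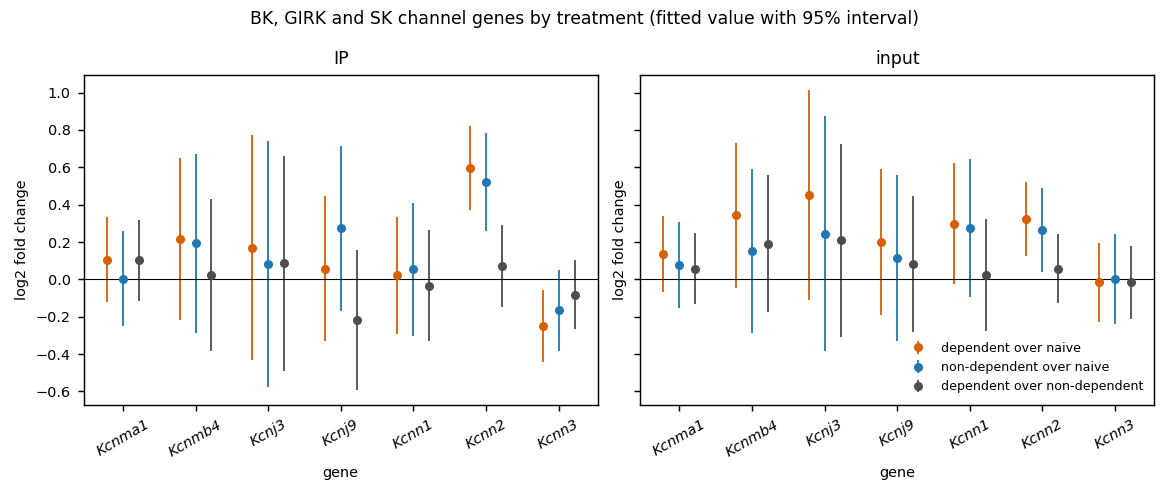
Log2 fold change (vertical axis) between treatments for 7 BK, GIRK and SK channel genes (horizontal axis) in IP and in input, with bars for the 95% interval. Kcnn2 lies above 0 against naive mice for both drinking groups, at 0.60 and 0.52 in IP, and the intervals of Kcnma1, Kcnj3 and Kcnj9 include 0 throughout.

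Genes outside the family that work with its channels were counted from lists. Of 13 tested partner proteins, such as the Kv4-binding Dpp6 and Dpp10 and the axonal Cntnap2, 2 were higher and 9 lower in IP (median -0.90). Those higher were Adam23 (0.55) and Amigo1 (0.21), and the lowest were Cntn2 (-1.34), Dpp10 (-1.31) and Dpp6 (-1.26). Potassium and chloride transport genes divided, 5 of 11 higher, among them the sodium pump subunit Atp1b2 (2.80), and 6 lower, among them Slc12a5 (-1.44), the chloride exporter of neurons. All 4 HCN genes, channels for the hyperpolarization-activated current, were lower (median -0.9985). Between dependent and naive IP libraries, no partner of 12, no HCN gene of 4 and 1 transport gene of 11 was called, Slc12a5 at -0.30 (adjusted p = 0.0355).

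No member was called between females and males, in IP (0.0501% of all genes called) or in input (0.0508%). At an unadjusted p under 0.05 were 3 members (4.35%) in IP and 7 (10.1%) in input, against 5.24% and 5.11% of all genes. Kcnip1 had the smallest p in both, at a female-minus-male value of -0.40 (p = 0.0154 before adjustment, edgeR adjusted p = 0.824) in IP and -0.45 (p = 5.27e-04 before adjustment, edgeR adjusted p = 0.358) in input. Kcnma1 in IP was at 0.21 (p = 0.0224 before adjustment, edgeR adjusted p = 0.878) and Kcnj2 at 0.37 (p = 0.0273 before adjustment, edgeR adjusted p = 0.878). In input Kcng2 followed at -0.32 (p = 0.0124 before adjustment, edgeR adjusted p = 0.849), and DESeq2 and limma voom called no member in either fraction. Kcnj12 and Kcnk9 came next in input, at 0.24 and -0.25, and Kcnd2 in IP, at 0.17. No member was called for a sex difference in the dependent-against-naive change in IP or input, nor was any gene (0%). At an unadjusted p under 0.05 were 3 members (4.35%) in each fraction, against 3.14% of all genes in IP and 2.74% in input.

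More members were called for batch than for treatment. The 3 batch terms were called for 29 of 69 members in IP and 34 in input, against 46.6% and 52.1% of all genes, so these shares of 42.0% and 49.3% were near the background. Kcna3 had input levels of 6.85, 11.7 and 15.3 CPM in batch I and 4.67, 10.8 and 12.8 CPM in batch L, but 0.226, 0.899 and 2.50 CPM in J and 0.261, 1.02 and 2.15 CPM in K. Batches I and L did not overlap with J and K, and their mean was 8.87-fold that of J and K (with 0.1 CPM added to both). Kcnh3 in input ran at 53.8, 78.2 and 103 CPM in batch I and 51.3, 70.9 and 89.5 CPM in L, against 23.2, 30.1 and 36.3 CPM in J and 23.9, 31.2 and 38.6 CPM in K, again with no overlap. Kcnj4 was 2.03-fold as high in I and L in input. In IP the smallest p-values belonged to Kcnh3 (1.91-fold), Kcnip3 (1.63-fold), Kcnip2 (1.75-fold) and Kcnj4 (1.64-fold).

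**Figure D5:**
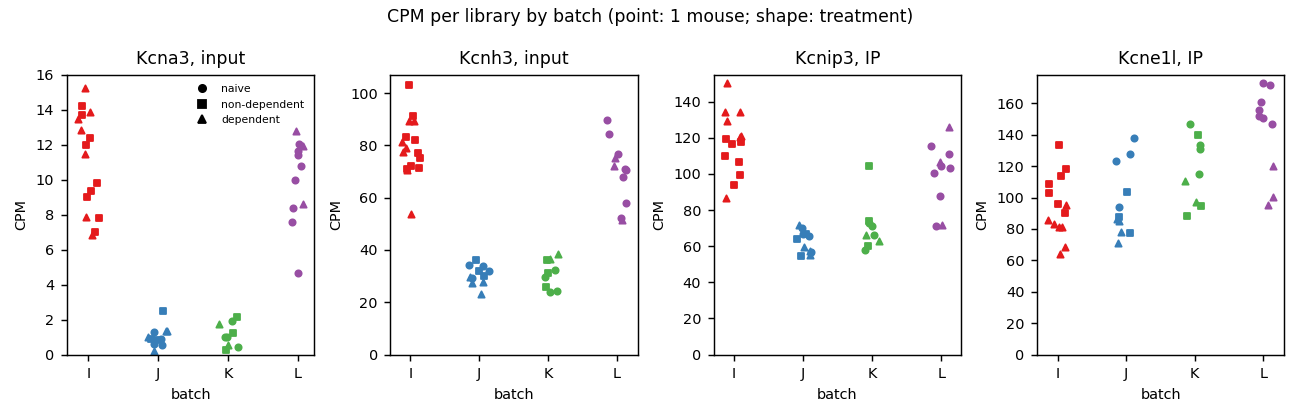
CPM per library (vertical axis, from 0) by batch (horizontal axis) for Kcna3 and Kcnh3 in input and Kcnip3 and Kcne1l in IP; each point is 1 mouse and its shape the treatment. Kcna3 and Kcnh3 form a high pair of batches (I and L) and a low pair (J and K) whatever the treatment, a step that Kcne1l does not show.

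The same pair of batches was high for most members with a batch call. Means of batches I and L both exceeded those of J and K for 21 of the 29 in IP and 26 of the 34 in input, and both fell below for 3 and 4. Over all genes they exceeded for 4822 of 9317 called genes in IP and 5837 of 10262 in input, and fell below for 3091 and 3422. In input the median transcript GC content of members was 56.8% for those called and higher in I and L and 53.4% for all members, beside 52.35% and 49.5% over all genes tested. Across the 69 members the log2 ratio of I and L to J and K rose with transcript GC content (Spearman's rho 0.56 in IP and 0.58 in input), and the same coefficients across all genes tested were lower (0.19 and 0.24). These are correlations across genes of the same libraries, given as a description, and the part of GC content in the batch differences was not tested. Of the members that fell or rose with treatment, Kcne1l and Kcns2 were 1.10-fold and 1.07-fold as high in I and L as in J and K in IP. Kcnip1, Kcng2 and Kcnn2 were 1.89-fold, 1.74-fold and 1.435-fold as high. Batch I, which holds no naive mouse, had the highest mean IP level of Kcnip1, Kcng2 and Kcnn2. The within-batch differences from naive mice given above leave batch I out.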

How the data were processed

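RNA of the accumbens was sequenced after translating ribosome affinity purification (IP) and before it (input), with a SMART-Seq PLUS kit, per the labels' protocols. Reads were checked with FastQC 0.11.9, trimmed with Trimmomatic 0.39 and aligned to GRCm38 with STAR 2.7.10b, per the submitters' processing notes. How reads were assigned to genes (program, gene models, strand) is not given in the sources used here. The values are raw read counts per gene as the authors deposited them, with no normalization.

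Symbols, biotypes and exonic lengths were taken from GENCODE M21, and promoter sequences from RefSeq's GRCm38.p6 table. Counts were tested with edgeR 4.0.16 (TMM factors, filterByExpr over treatment and sex, quasi-likelihood F test) in R 4.3.3, and p-values were adjusted over all genes tested by Benjamini-Hochberg at 0.05. IP was compared with input over 46 mice with the mouse as a block. Treatments were compared in batches I to L with treatment by sex and batch terms, and a model of both libraries gave the IP-minus-input differences. The IP treatment fit and the paired fit were first run on simulated counts with known changes. Those counts held no batch, sex or mouse effects, so that run could not test how the fits handle these. Libraries of 1 mouse come from the same animal; over 9507 genes their deviations correlated at a median of 0.65, against 0.495 for other mice of the same batch.

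Genes named are the 6 highest and lowest in IP over input, the ethanol-sensitive list, members called by treatment (or the 3 smallest p), each subfamily's extremes and the 4 smallest p for batch and sex. The members and lists were chosen with earlier results of these data known. Alternatives were DESeq2 1.42.0, limma voom 3.58.1, other size factors, no filter, no batch term, batches J and K, single batches and single sexes. Library size alone, leaving out mouse K15 and the GC description were added after seeing the data. No interval for a count is given, since fits cover the spread between mice. Kcnn2 and Kcng2 are given without coordinates or sequence. Some genes that the naming rule picks are not reported here.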

Additional observations from a re-analysis of the deposited data

How the results depend on the processing

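The count of members called for IP against input ranged from 53 to 66 over the alternatives (66 as reported), and 626 of 660 recomputed calls of single members remained. Without the replicate block 64 members were called (11 higher, 53 lower; members' median -0.89), Kcnc4 (0.25) and Kcnn1 (0.18) being the calls lost, and no called value changed sign under any alternative. For treatment, 84 of 128 recomputed calls remained. DESeq2 and limma voom lost none of the 16, batches J and K alone lost 13, females alone 9, males alone 15, no batch term 3, no filter 2 and leaving out mouse K15 2. For dependent against non-dependent mice in IP, 1 member was called as reported, 3 by DESeq2, 2 by limma voom, 5 with no filter, and 0 with no batch term, in batches J and K, in females and in males. Against naive mice in IP, where 9 were called, dependent mice gave 4 in batches J and K, 5 in females and 1 in males. Kcna4 in batches J and K and Kcnab1 in females were not among the 9. For non-dependent against naive mice in IP, where 0 were called, DESeq2 gave 4, limma voom 1, no filter 6, no batch term 2 and leaving out mouse K15 1. In input, where 6 were called for dependent against naive mice, no batch term gave 10, and batches J and K alone and males alone gave 0. The cause of these changes was not tested, beyond the smaller number of mice in single sexes and in batches J and K. Leaving out mouse K15 exchanged Kcnh3 for Kcne1l as the member called between dependent and non-dependent mice. Members near 1 CPM, such as Kcnmb1 and Kcnmb2, had the widest errors: with a limit of 0.5 CPM the family held 72 genes, with 2 CPM 60, and with 1 CPM in both fractions 66.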
